A study of Mus musculus with 18 samples.

Results

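The comparison described here set mouse brown adipocytes with ABHD5 restored against the same cells with ABHD5 knocked down, with the β-adrenergic agonist isoproterenol (ISO) present in both. It used 6 of the 18 libraries of the series, chosen by their labels: 3 replicates stimulated with ISO without doxycycline (Dox) and 3 stimulated with ISO with Dox. All cells came from 1 immortalised mouse brown adipocyte line that carried a stable short hairpin RNA against Abhd5 and a Dox-inducible, hairpin-resistant ABHD5 fused to the fluorescent protein mCherry. The labels call the cells without Dox ABHD5 KD and those with Dox (1 µg/ml for 24 to 48 h) WT, and the study's description of this treatment elsewhere gives 24 h. ISO was given at 10 nM for 3 h. The corresponding DMSO (vehicle) libraries, 3 without and 3 with Dox, show the effect of Dox without the agonist, and the 6 libraries stimulated with SR-3420 entered only the gene filter, the scaling and the shared estimate of the spread. Dox was present in every library with restored ABHD5 and in none without it, so the drug, the induced fusion protein and the return of ABHD5 cannot be told apart here. The replicates were independent experiments according to the study's methods.

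ABHD5 is the coactivator of adipose triglyceride lipase (ATGL, encoded by Pnpla2), which removes the first fatty acid from stored triglyceride. At rest ABHD5 is held on the lipid droplet by perilipins, and protein kinase A releases it when an agonist raises cAMP. The freed fatty acids fuel heat production and also act as ligands of the nuclear receptors PPARα, PPARδ and PPARγ, which control genes of fatty acid handling. Sterol synthesis and uptake genes are under the SREBP transcription factors, which are active when cell sterol is low. Interferon-stimulated genes are switched on by transcription factors that interferon receptors activate, which bind a short DNA element of repeated GAAA.

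Total counts per library lay between 904531 and 1367392 in the 6 ISO libraries and the median gene had 10 to 14 counts, so many genes rest on few reads. The 10 genes accounted for 16.3% to 26.5% of a library in the ISO groups, and for 35.6% in 1 library of the SR-3420 group with Dox, which takes part in the estimate of the spread (leaving it out gave 475 calls in place of 477). Values are CPM, a gene's counts relative to the scaled total of its library, and a gene was called higher or lower at an adjusted p of 0.05 or less with at least a 2-fold difference. The lengths over which the deposited counts were taken lay within 10% of a gene's intron length for 66.5% of 16388 matched genes and within 10% of its exon length for 2.48%, so the values may largely follow unspliced RNA. Levels are therefore compared between groups and not between genes.

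Abhd5 (NM_026179, mm9 chromosome 9, 122260734 to 122290641, plus strand), the gene targeted by the hairpin, was examined first. With ISO its level was 173, 145 and 129.9 CPM without Dox and 813, 859 and 808 CPM with Dox, a 5.56-fold difference with no overlap between the groups (log2 fold change 2.48, SE 0.15, edgeR adjusted p = 3.30e-12). In DMSO it was 52.6 ± 4.71 CPM without Dox and 574 ± 86.1 CPM with Dox (SD, n = 3). The difference by Dox was thus smaller with ISO than with DMSO (difference of the log2 fold changes -0.98, edgeR adjusted p = 0.0194), and the knockdown cells themselves had a higher level with ISO than with DMSO. The table does not separate reads of the inducible construct from those of the endogenous gene. The counted length of Abhd5 was 24026 bases, and which share of its counts came from the construct was not tested. The lipase partner Pnpla2 was at 436, 477 and 580.2 CPM without Dox and 753, 815 and 823 CPM with Dox, groups that do not overlap but differ by less than 2-fold (log2 fold change 0.68, SE 0.14, edgeR adjusted p = 8.64e-04).

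With ISO in both groups, genes differed in both directions with ABHD5 restored. Of 10178 genes tested, 319 were called higher with Dox (3.13%) and 158 lower (1.55%). With adjusted p alone and no fold limit, 806 were higher (7.92%) and 491 lower (4.82%). Libraries of the groups did not overlap for 306 of the 319 and for 150 of the 158, against 14.7% of all genes tested that did not overlap in the higher direction and 13.6% in the lower. The same Dox comparison in DMSO called 89 genes higher (0.874%) and 2 lower (0.0197%), or 111 (1.09%) and 9 (0.0884%) by adjusted p alone. Of the 319 genes higher with ISO, 79 were also higher with DMSO, which is 24.8% of the ISO list and 88.8% of the DMSO list. These comparisons share no library. Of the 319 genes 65 (20.4%) were in the interferon lists and 31 (9.72%) in the lipid lists, and of the 158 genes 15 were in the lipid lists, so most called genes were in neither.

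**Figure D1:**
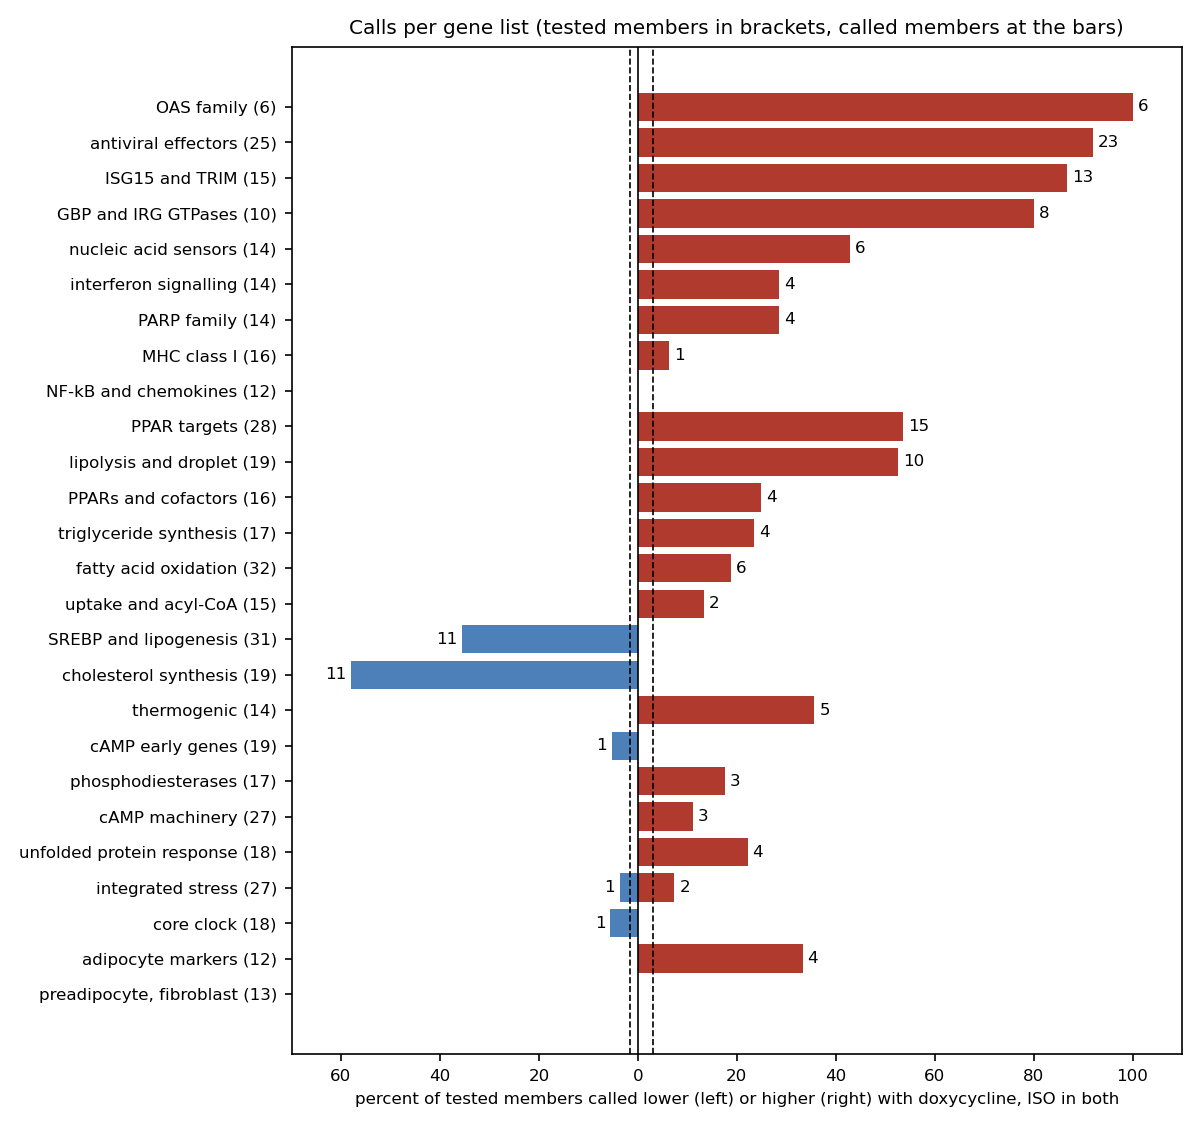
Share of the tested members of each gene list called higher (right, red) or lower (left, blue) with Dox when ISO was present in both groups, with the number called at each bar and the number tested in brackets. Dashed lines mark the share over all 10178 genes tested, 3.13% higher and 1.55% lower. Most interferon lists and most lipid lists extend to the right, and the lipogenesis and cholesterol lists to the left. The cAMP early gene, integrated stress and core clock lists each have a shorter bar to the left, of 1 gene.

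By the smallest p, the genes higher with Dox under ISO with no overlap of libraries began with 4931406C07Rik, a gene known only by its clone name. Its level was 31.3, 44.6 and 37.5 CPM without Dox and 495, 311 and 331 CPM with Dox (log2 fold change 3.32, SE 0.20, edgeR adjusted p = 1.78e-12). Tmem120a, which encodes a membrane protein of the nuclear envelope and endoplasmic reticulum, was at 121, 118 and 137 CPM without Dox and 548, 558 and 522 CPM with Dox (log2 fold change 2.11, SE 0.14, edgeR adjusted p = 6.16e-12). Dhrs3, a retinaldehyde reductase, was at 32.4, 25.8 and 27.8 CPM without Dox and 139, 133 and 139.6 CPM with Dox (log2 fold change 2.26). Only genes whose libraries did not overlap were ranked, so the separation of the groups in these genes follows from that choice. By log2 fold change and edgeR adjusted p, the others of the first 10 besides Abhd5 were Tmem140 (2.21, adjusted p = 9.39e-11), Prkar2b (1.87, adjusted p = 3.12e-10), Aifm2 (1.62, adjusted p = 6.05e-10), Acsl1 (2.06, adjusted p = 6.08e-10), Pck1 (3.21, adjusted p = 6.61e-10) and Dhrs9 (1.94, adjusted p = 1.50e-09). Prkar2b encodes a regulatory subunit of protein kinase A and Aifm2 an oxidoreductase of the lipid droplet that protects membranes from peroxidation.

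In the lower direction the first 10 were Runx1 (-1.54, adjusted p = 1.01e-07), Cyp2ab1 (-2.13, adjusted p = 1.01e-07), Gfpt2 (-1.43, adjusted p = 1.08e-07), Pi15 (-1.90, adjusted p = 1.37e-07), Fdps (-1.36, adjusted p = 1.13e-06), Acly (-1.08, adjusted p = 2.26e-06), Fgf2 (-1.69, adjusted p = 2.26e-06), Il1r1 (-1.07, adjusted p = 3.93e-06), Nfil3 (-1.01, adjusted p = 6.46e-06) and Camkk2 (-1.30, adjusted p = 6.85e-06). Runx1, a transcription factor, was at 178, 141 and 144 CPM without Dox and 59.2, 44.1 and 55.8 CPM with Dox. Gfpt2, an enzyme of the hexosamine pathway, was at 267, 189 and 184 CPM without Dox and 76.7, 79.6 and 80.9 CPM with Dox. In DMSO its level was 9.70 ± 1.501 CPM without Dox and 12.5 ± 1.77 CPM with Dox, so the libraries with ISO and Dox stood between the DMSO level and that of ISO without Dox. Runx1 with ISO and Dox, at 53.0 ± 7.92 CPM, was within the SD of its DMSO level of 47.4 ± 8.89 CPM. Fgf2, a growth factor, showed a similar order, with 179, 165 and 87.1 CPM without Dox and 46.7, 42.5 and 42.4 CPM with Dox and 40.3 ± 10.8 CPM in DMSO. Fdps and Acly belong to sterol and fatty acid synthesis and are taken up below.

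Many interferon-stimulated genes were higher with Dox in both media. The 9 lists, called the interferon lists here, hold interferon signalling and response genes and also the whole PARP family and a cell death list, many of whose members are not interferon genes. Of 120 tested genes (of 152 listed) 65 (54.2%) were called higher with Dox under ISO and 1, of the cell death list, lower, against 3.13% and 1.55% over all genes tested. The median log2 fold change was 1.28 against -0.01 over all genes tested. In DMSO 69 of the 120 were called higher, against 0.874% over all genes, with a median of 1.53. None of the 120 passed the test of the difference between ISO and DMSO at an adjusted p of 0.05 by edgeR, DESeq2 or limma-voom, and 1 positive and 8 negative had an unadjusted p under 0.05 by edgeR. Among all genes tested 164 positive (1.61%) and 58 negative (0.57%) passed it. Of the 79 genes higher in both media, 77 were in these lists or in the cluster dox_C1, which the study formed on these same samples and which is no independent evidence.

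Some well-known interferon-stimulated genes gave no test: Isg15 and Ifit1 were below the filter on low counts, and Irf7 and Cxcl10 were not analysed here. Oasl2, of the oligoadenylate synthetase family that senses double-stranded RNA, was at 7.56, 48.6 and 21.02 CPM without Dox and 205, 444 and 333 CPM with Dox (log2 fold change 3.66, SE 0.43, edgeR adjusted p = 4.17e-07). All 6 tested members of that family were called higher, against 3.13% over all genes tested. Oas1b was at 21.6, 29.7 and 11.3 CPM without Dox and 142, 255 and 255 CPM with Dox (log2 fold change 3.42, SE 0.32, edgeR adjusted p = 1.17e-08). Oas1a and Oas2 had at most 3 counts in every ISO library without Dox, and with Dox were at least 9.41-fold and 8.87-fold higher, against a floor of 3 counts per library. The median of the family was 3.54 as fitted and 3.19 with such genes at their bound. Bst2, the membrane protein tetherin that holds budding virus on the cell, was at 16.2, 24.8 and 9.01 CPM without Dox and 89.2, 185 and 167 CPM with Dox (log2 fold change 3.19, SE 0.32, edgeR adjusted p = 4.86e-08). Without Dox the lowest Bst2 library was ISO replicate 3, with Dox it was replicate 1, and the groups did not overlap.

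Of the effectors, 23 of 25 tested (92%) were called higher, with a median of 2.34. This count and those of the next lists are read against 3.13% over all genes tested. They included Rtp4 (3.44, adjusted p = 1.01e-07), Lgals3bp (2.21, adjusted p = 1.60e-08), Ddx60 (3.47, adjusted p = 2.22e-07), Slfn8 (3.34, adjusted p = 4.17e-07), Rsad2 (4.23, adjusted p = 9.92e-05) and Mx1 (3.25, adjusted p = 2.63e-04). Rsad2, the radical enzyme viperin, was at 3.24, 9.91 and 0.751 CPM without Dox and 30.01, 135 and 81.8 CPM with Dox with an SE of 0.72 on the log2 scale. Among the ISG15 and TRIM genes, which attach ubiquitin and its relative ISG15, 13 of 15 were called, among them Trim25 (1.63, adjusted p = 1.70e-07), Trim12a (2.31, adjusted p = 2.21e-06), Herc6 (1.91, adjusted p = 8.63e-06), Uba7 (2.06, adjusted p = 0.00369) and Sp100 (2.59, adjusted p = 1.46e-04). Usp18, which removes ISG15 and damps the receptor, was at 7.56, 19.8 and 9.01 CPM without Dox and 57.5, 161 and 125 CPM with Dox. Of the GTPases that attack vacuoles of microbes, 8 of 10 were called, including Iigp1 (3.47, adjusted p = 1.47e-05), Gbp6 (2.61, adjusted p = 1.93e-05), Gbp10 (2.89, adjusted p = 2.35e-05), Gbp3 (2.85, adjusted p = 4.32e-05) and Irgm1 (2.74, adjusted p = 4.32e-05). The cytosolic RNA sensors RIG-I and MDA5, encoded by Ddx58 and Ifih1, were higher by 3.16 and 2.29 on the log2 scale, and Eif2ak2, Adar and Dhx58 by 2.13, 2.19 and 2.55. Sensors as a list had 6 of 14 members called.

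Fewer members were called among the signalling and neighbouring genes, to be read against 3.13% over all genes tested. Of 14 tested signalling genes 4 (28.6%) were called, among them Usp18 (3.25, adjusted p = 8.74e-07), Stat2 (1.07, adjusted p = 0.0062) and Irf9 (1.22, adjusted p = 0.0308). Stat2, which together with Irf9 carries the signal of type I interferon to DNA, was at 75.6, 106 and 69.1 CPM without Dox and 117, 218 and 189.6 CPM with Dox, groups whose means differ by little more than the fold limit. The receptor gene Ifnar1 had 73.5, 64.4 and 65.3 CPM without Dox and 61.7, 68.5 and 54.9 CPM with Dox (log2 fold change -0.13, SE 0.16, edgeR adjusted p = 0.682). Jak2 gave -0.68 and Ifngr1 0.60, both past the adjusted p but under the fold limit. In the antigen presentation list 1 of 16 members (6.25%) was called, the peptide transporter gene Tap1 (1.43, adjusted p = 6.43e-04), while H2-Q4 and H2-K1 were higher by 0.91 and 0.67 under the fold limit, with a list median of 0.50. Nlrc5, the activator of class I genes, gave 0.48 with ISO (adjusted p = 0.0677) and was called in DMSO (1.02, adjusted p = 6.00e-04), a difference that did not pass (adjusted p = 0.307). With the replicate block its value with ISO passed under the fold limit (0.48, edgeR adjusted p = 0.0116). Of 14 PARP family genes 4 (28.6%) were called higher: Parp9, Parp10, Parp12 and Parp14 rose by 2.34, 1.33, 1.59 and 2.88. In the cell death list Mlkl, Casp8, Gsdmd and Fas had log2 fold changes of 0.89, 0.73, 0.30 and 0.27 with no call, and Bcl2l11, a death-promoting BCL2 relative, was the 1 member called lower (-1.27, adjusted p = 3.87e-04). None of 12 tested NF-κB and chemokine genes was called by edgeR, DESeq2 or limma-voom or passed the adjusted p alone (median -0.03, 3 at an unadjusted p under 0.05 by edgeR), and Nfkb1, Nfkb2, Rela, Cxcl12 and Tnfaip2 had log2 fold changes of -0.37, -0.32, -0.24, -0.69 and 0.83. With the replicate block Tnfaip2 passed the adjusted p under the fold limit (0.87, edgeR adjusted p = 0.0272).

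The replicates were not alike in this group. Averaged over the 120 genes as log2(CPM + 1), the ISO libraries without Dox stood at 4.08, 4.65 and 4.22 and those with Dox at 5.32, 6.02 and 5.86 for replicates 1, 2 and 3. In DMSO the averages were 4.27, 4.45 and 4.18 without Dox and 5.56, 6.01 and 6.03 with Dox. Replicate 1 was the lowest of the 3 in both Dox groups, and replicate 2 was the highest in both groups without Dox. The lowest library with Dox remained above the highest without it in each medium.

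**Figure D2:**
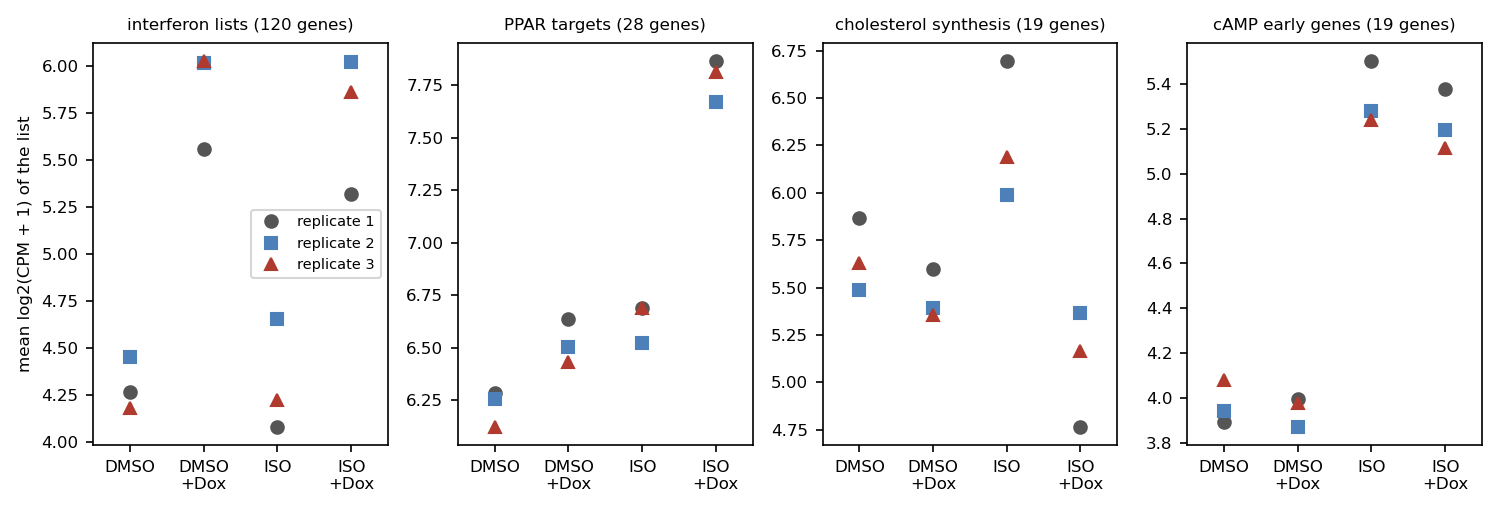
Mean log2(CPM + 1) over the members of 4 gene lists in each of the 12 DMSO and ISO libraries, 1 symbol per replicate number, with a separate vertical scale in each panel that does not start at 0. The interferon lists are high in both Dox groups, the PPAR targets highest with ISO and Dox, the cholesterol genes highest with ISO without Dox, and the cAMP early genes high with ISO in either state.

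The promoters of these genes were compared with the interferon-stimulated response element, searched as GAAANNGAAA on either strand of the 300 bases around each start (250 before and 50 after) in RefSeq promoters of build GRCm38.p6. Matching by RefSeq accession or symbol gave a promoter for 8217 of the 10178 genes tested. Among genes called higher under ISO, 41 of the 244 matched held the element (16.8%), against 311 of the 8217 matched of all tested (3.78%) and 2 of the 126 matched of those called lower (1.59%). In the interferon lists it was 24 of the 46 matched genes called higher (52.2%), and outside those lists 17 of the 198 matched (8.59%). A match is a string of letters and not a shown binding site. The stretches below show the element, in capitals, with its flanks in 6 named genes called higher that hold it before the start. It is written 5′ to 3′ on the strand of the gene, and an element on the other strand reads as its reverse complement.
Dhrs3 (GRCm38.p6, chr4:144892926-144892985, plus strand): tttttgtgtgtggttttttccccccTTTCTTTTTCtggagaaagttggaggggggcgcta
Tmem140 (GRCm38.p6, chr6:34863058-34863117, plus strand): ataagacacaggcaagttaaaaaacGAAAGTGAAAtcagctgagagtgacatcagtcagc
Bst2 (GRCm38.p6, chr8:71537568-71537627, minus strand): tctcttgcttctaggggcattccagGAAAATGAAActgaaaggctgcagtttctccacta
Ddx60 (GRCm38.p6, chr8:61928009-61928068, plus strand): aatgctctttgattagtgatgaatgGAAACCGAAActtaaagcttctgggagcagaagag
Slfn8 (GRCm38.p6, chr11:83020824-83020883, minus strand): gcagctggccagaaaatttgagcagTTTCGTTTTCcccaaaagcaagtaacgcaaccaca
Oas1a (GRCm38.p6, chr5:120907526-120907570, minus strand): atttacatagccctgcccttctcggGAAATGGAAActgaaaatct
The distance from the end of the element to the start was 117 bases in Dhrs3, 54 in Tmem140, 121 in Bst2, 44 in Ddx60, 39 in Slfn8 and 11 in Oas1a. Of these, Dhrs3 and Tmem140 are not in the interferon lists, and their Dox effect was larger with ISO than with DMSO, where Tmem140 gave 0.66 and Dhrs3 0.22 (differences 1.55 and 2.04, adjusted p = 3.97e-04 and 4.62e-06). The exact DR1 repeat bound by PPAR and RXR was in 0 of the 244 promoters of genes called higher and in 3 of all 8217 (0.0365%), which says only that these letters are rare in this window.

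Of the lists of fatty acid handling, PPAR targets and lipid droplet genes had the largest shares called higher under ISO. Of 28 tested PPAR target genes 15 (53.6%) were called higher and 0 lower, against 3.13% and 1.55% over all genes tested. Their median log2 fold change was 1.18. None of the 28 was called in DMSO by edgeR, DESeq2 or limma-voom, although 9 were positive at an unadjusted p under 0.05 by edgeR (median 0.24). In the test of the difference 10 passed the adjusted p, all positive. Pdk4, the kinase that shuts pyruvate dehydrogenase and spares glucose, was at 106, 79.3 and 159.9 CPM without Dox and 803, 532 and 726 CPM with Dox (log2 fold change 2.56, SE 0.25, edgeR adjusted p = 1.81e-08). In DMSO it was at 83.4 ± 27.9 and 145 ± 51.4 CPM (SD, n = 3), and the difference between media was 1.76 (adjusted p = 0.00616). Without Dox, the ISO libraries of Pdk4 overlapped those of DMSO. Acsl1, which activates fatty acids to their CoA esters, was at 362, 399.5 and 314 CPM without Dox and 1562, 1388 and 1530.4 CPM with Dox (log2 fold change 2.06, SE 0.17, edgeR adjusted p = 6.08e-10). Acaa1b, a thiolase of peroxisomal β-oxidation, rose by 2.67 on the log2 scale, and the peroxisome proliferation gene Pex11a by 1.58. Angptl4, a secreted inhibitor of lipoprotein lipase, was at 143, 82.3 and 165 CPM without Dox and 466, 389 and 449 CPM with Dox (log2 fold change 1.73, SE 0.28, edgeR adjusted p = 4.67e-05), and in DMSO already at 263 ± 105 CPM without Dox, above its mean with ISO without Dox.

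On the lipid droplet, 10 of 19 tested genes (52.6%, against 3.13% over all genes) were called higher and none lower, against 1.55% over all genes (list median 1.15). Plin1, the perilipin that holds ABHD5, was at 470.1, 441 and 480.4 CPM without Dox and 1276, 1364 and 1147 CPM with Dox (log2 fold change 1.44, SE 0.16, edgeR adjusted p = 1.79e-07). It was also higher in DMSO, by 0.76 (adjusted p = 0.00519), under the fold limit. The droplet coat gene Plin2 was at 169.7, 213 and 148 CPM without Dox and 566, 561 and 405 CPM with Dox (log2 fold change 1.54, SE 0.23, edgeR adjusted p = 1.98e-05), and Cidec, which fuses droplets, at 190.2, 282 and 253 CPM without Dox and 746, 814 and 735 CPM with Dox (log2 fold change 1.66, SE 0.16, edgeR adjusted p = 2.60e-08). Mgll, the lipase of the last step, and Aqp7, the glycerol channel, were higher by 1.60 and 1.63. Hilpda, an inhibitor of ATGL, was at 12.97, 5.95 and 3.75 CPM without Dox and 40.02, 29.1 and 20.2 CPM with Dox (log2 fold change 2.05, SE 0.43, edgeR adjusted p = 0.00126). Plin5, whose product also binds ABHD5, was at 20.5, 11.9 and 10.5 CPM without Dox and 25.8, 14.2 and 16.4 CPM with Dox and did not pass (adjusted p = 0.433). Abhd5 itself is 1 of the 10.

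In the steps that store fat, 4 of 17 triglyceride synthesis genes (23.5%) were called higher and none lower, against 3.13% and 1.55% over all genes tested. Dgat1, which adds the last acyl chain, was at 3527, 3786 and 3216 CPM without Dox and 8980.5, 10952 and 8734 CPM with Dox (log2 fold change 1.45, SE 0.19, edgeR adjusted p = 3.05e-06), and in DMSO at 1139.5 ± 160.3 and 1173 ± 135 CPM without and with Dox. The knockdown cells thus had more Dgat1 signal with ISO than with DMSO, and the restored cells more again. Pck1, the first enzyme of glyceroneogenesis, was at 37.8, 16.9 and 43.5 CPM without Dox and 345, 232 and 354 CPM with Dox (log2 fold change 3.21, SE 0.26, edgeR adjusted p = 6.61e-10) and at 3.56 ± 0.519 CPM in DMSO without Dox. Agpat9 and Agpat2 were the other called members (2.07 and 1.05). Agpat3, Gpd1 and Lpin1 passed the adjusted p just under the fold limit (0.99, 0.999 and 0.89). Dgat2 (0.26) and the glycerol kinase gene Gyk (0.57, adjusted p = 0.0628) did not pass, though Gyk did with the replicate block (0.54, edgeR adjusted p = 1.80e-04). Of 32 tested genes of fatty acid oxidation 6 (18.8%) were called, all higher, and 18 passed the adjusted p alone, all positive (median 0.54), among them Crat (1.101, adjusted p = 8.68e-07), Acadl (1.15, adjusted p = 6.85e-06), Cpt2 (0.75, adjusted p = 0.00856) and Acadvl (0.62, adjusted p = 0.0196). In the uptake list 2 of 15 (13.3%, median 0.14) were called, Acsl1 and the fatty acid binding protein gene Fabp4 (2.19), while Cd36 gave 0.84, and Acsl3 (-0.55) and Acsl5 (-0.85) passed the adjusted p in the lower direction.

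The receptors differed among themselves. Ppara was at 4.32, 7.93 and 19.5 CPM without Dox and 97.5, 18.9 and 75.1 CPM with Dox (log2 fold change 2.45, SE 0.55, edgeR adjusted p = 0.00243), and its replicate 2 with Dox overlapped the highest library without Dox. Pparg, the main adipocyte receptor, was at 540.3, 452 and 519 CPM without Dox and 620.3, 406 and 624 CPM with Dox (log2 fold change 0.12, SE 0.15, edgeR adjusted p = 0.67). The coactivator Ppargc1a was at 169, 146 and 149 CPM without Dox and 597, 261 and 410.0 CPM with Dox (log2 fold change 1.45, SE 0.25, edgeR adjusted p = 1.27e-04), Ppargc1b gave 1.52 and Ncoa1 1.02, and these with Ppara were the 4 called members of 16 receptors and cofactors (25%), of which limma-voom called 2. Of 14 thermogenic genes 5 (35.7%) were called, all higher, against 3.13% over all genes tested. Ucp1, the uncoupling protein of brown fat, was at 102, 23.8 and 85.6 CPM without Dox and 289, 135 and 299 CPM with Dox (log2 fold change 1.77, SE 0.29, edgeR adjusted p = 7.19e-05) and had at most 3 counts in every DMSO library, so no DMSO fold is given. In both states the lowest Ucp1 library was replicate 2, as it was for Pck1 and for the β3-adrenergic receptor gene Adrb3, at 39.98, 9.91 and 42.0 CPM without Dox and 97.5, 22.8 and 111 CPM with Dox. Adrb3 did not pass (1.28, adjusted p = 0.116) but was called with the replicate number as a block (log2 fold change 1.31, adjusted p = 2.80e-05). The others called were Cidea (1.22), Nrg4 (1.82), a growth factor secreted by brown fat, and the coactivators Ppargc1a and Ppargc1b. Prdm16 gave 0.61 and Irf4 0.85 with no call.

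The difference between ISO and DMSO was tested directly. Over all genes 91 had a more positive Dox effect with ISO (0.894%) and 42 a more negative one (0.413%). With the replicate number as a block they were 143 and 92. Without replicate 1 of ISO with Dox the total of 133 was 87. These counts depend on the scaling: with upper-quartile factors they were 72 and 58, and with library totals only 94 and 19. DESeq2 gave 86 and 24. The positive differences with the smallest p, which are not all the largest, were 4931406C07Rik (2.94, adjusted p = 4.79e-07), Dhrs3 (2.04, adjusted p = 4.62e-06), Prkar2b (1.73, adjusted p = 1.32e-05), Tmem120a (1.57, adjusted p = 3.96e-05) and Picalm (1.63, adjusted p = 5.21e-05). Picalm, a clathrin adaptor, was at 169.7, 191 and 146 CPM without Dox and 530.2, 525 and 417 CPM with Dox, with 179 ± 6.61 and 167 ± 27.2 CPM in DMSO. The most negative by p were Acsl5 (-1.40, adjusted p = 3.13e-04), Fgf2 (-2.04, adjusted p = 5.07e-04), Hdac7 (-1.69, adjusted p = 5.77e-04), Dgkz (-1.64, adjusted p = 0.00175) and Camkk2 (-1.69, adjusted p = 0.00234). Acsl5 differed in opposite directions, -0.85 with ISO and 0.55 with DMSO, of which the second did not pass.

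**Figure D3:**
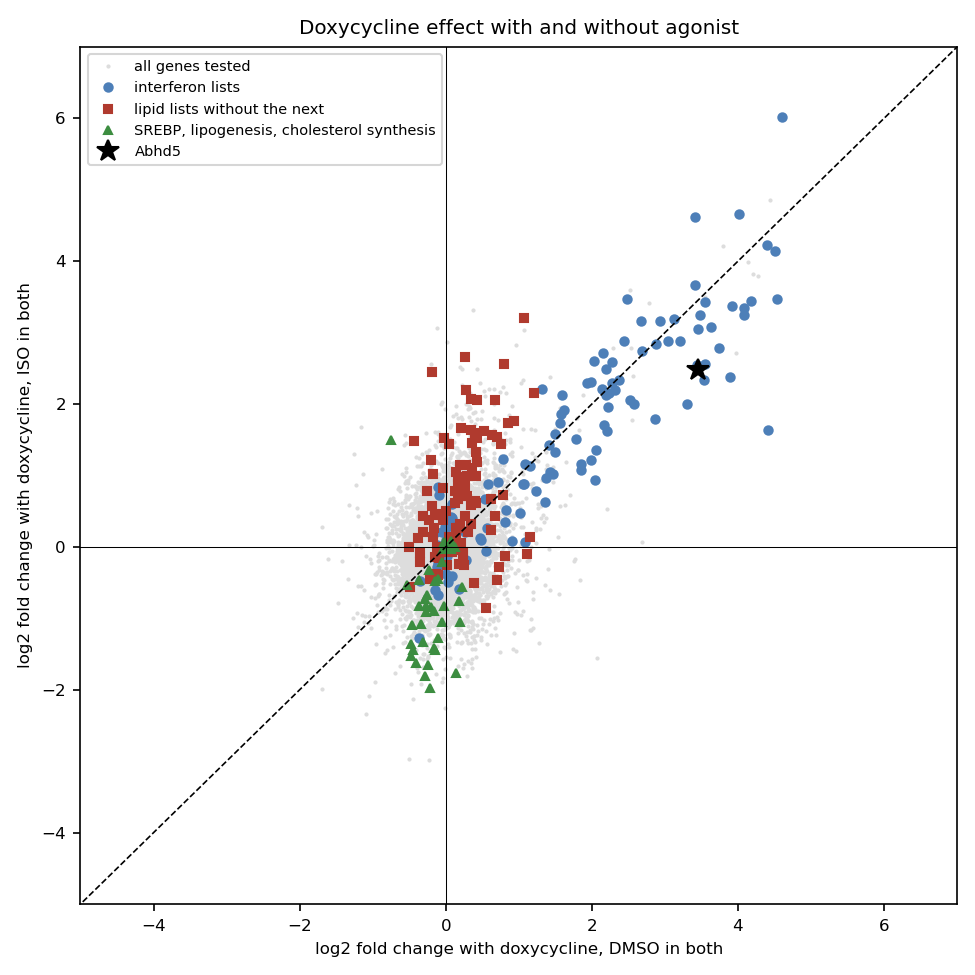
Log2 fold change with Dox when ISO was in both groups (vertical) against that when DMSO was in both (horizontal), for the interferon lists (blue circles), the lipid lists without the lipogenesis and cholesterol genes (red squares), those genes (green triangles), Abhd5 (star) and all 10178 genes tested (grey). Many interferon genes lie far from 0 near the dashed line of equal effects, many lipid genes lie above it, with Acsl5 (-0.85 with ISO, 0.55 with DMSO) among those below it, and the green triangles lie mostly below 0 on the vertical axis.

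Sterol genes were lower with Dox under ISO. Of 31 tested genes of the SREBP and lipogenesis list 11 (35.5%) were called lower and 0 higher, against 1.55% and 3.13% over all genes tested. By the adjusted p alone 18 passed, all lower (median -0.83), against 4.82% lower over all genes. With the replicate block 1 member was called higher. The cholesterol synthesis enzymes were then listed in full, from the first step to the last, after these values had been seen. Of the 19 tested 11 (57.9%) were called lower and none higher (median -1.27), among them Mvk, Pmvk, Mvd, Idi1, Fdps, Cyp51, Msmo1, Hsd17b7 and Sc5d. In DMSO none of the 19 was called by edgeR, DESeq2 or limma-voom, and 2 were lower at an unadjusted p under 0.05 by edgeR (median -0.24). In the test of the difference 5 passed the adjusted p by edgeR and DESeq2 and 2 by limma-voom, all negative. Fdps, which makes farnesyl diphosphate, was at 226, 159 and 208 CPM without Dox and 68.4, 81.9 and 80.9 CPM with Dox (log2 fold change -1.36, SE 0.17, edgeR adjusted p = 1.13e-06). Mvk, the mevalonate kinase, was at 57.3, 36.7 and 47.3 CPM without Dox and 18.3, 12.6 and 8.66 CPM with Dox (log2 fold change -1.81, SE 0.27, edgeR adjusted p = 2.20e-05), and Cyp51, which removes a methyl group from lanosterol, was at 317, 212 and 182 CPM without Dox and 65.0, 113 and 80.9 CPM with Dox (log2 fold change -1.44, SE 0.21, edgeR adjusted p = 1.00e-05). In all 3 genes every library with Dox was below every library without it.

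The DMSO levels place these values. Mvk was at 35.8 ± 5.58 CPM in DMSO without Dox and 29.3 ± 7.62 with Dox, and Cyp51 at 116 ± 21.2 and 84.6 ± 11.9. With ISO the means were 47.1 ± 10.3 and 13.2 ± 4.87 for Mvk and 237 ± 70.8 and 86.4 ± 24.7 for Cyp51 (SD, n = 3). The knockdown cells with ISO therefore had the highest mean of the 4 groups, although for Mvk its libraries overlapped those in DMSO. Averaged over the 19 enzymes as log2(CPM + 1), the libraries stood at 5.87, 5.49 and 5.63 in DMSO, 5.60, 5.39 and 5.36 in DMSO with Dox, 6.70, 5.99 and 6.19 in ISO and 4.77, 5.37 and 5.17 in ISO with Dox. Replicate 1 was both the highest of the ISO libraries without Dox and the lowest of those with it. Of the fatty acid branch, Acly, which makes cytosolic acetyl-CoA, was at 493, 341 and 434 CPM without Dox and 203, 195 and 202 CPM with Dox (log2 fold change -1.08, SE 0.14, edgeR adjusted p = 2.26e-06), and Fasn gave -0.91, just under the fold limit (adjusted p = 9.45e-05). Elovl6 gave -0.56 (adjusted p = 0.262). Srebf1, the gene of the lipogenic factor itself, was at 781, 1230.4 and 1108 CPM without Dox and 778, 1226 and 1059.8 CPM with Dox (log2 fold change -0.03, SE 0.20, edgeR adjusted p = 0.956), groups that overlap fully.

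**Figure D4:**
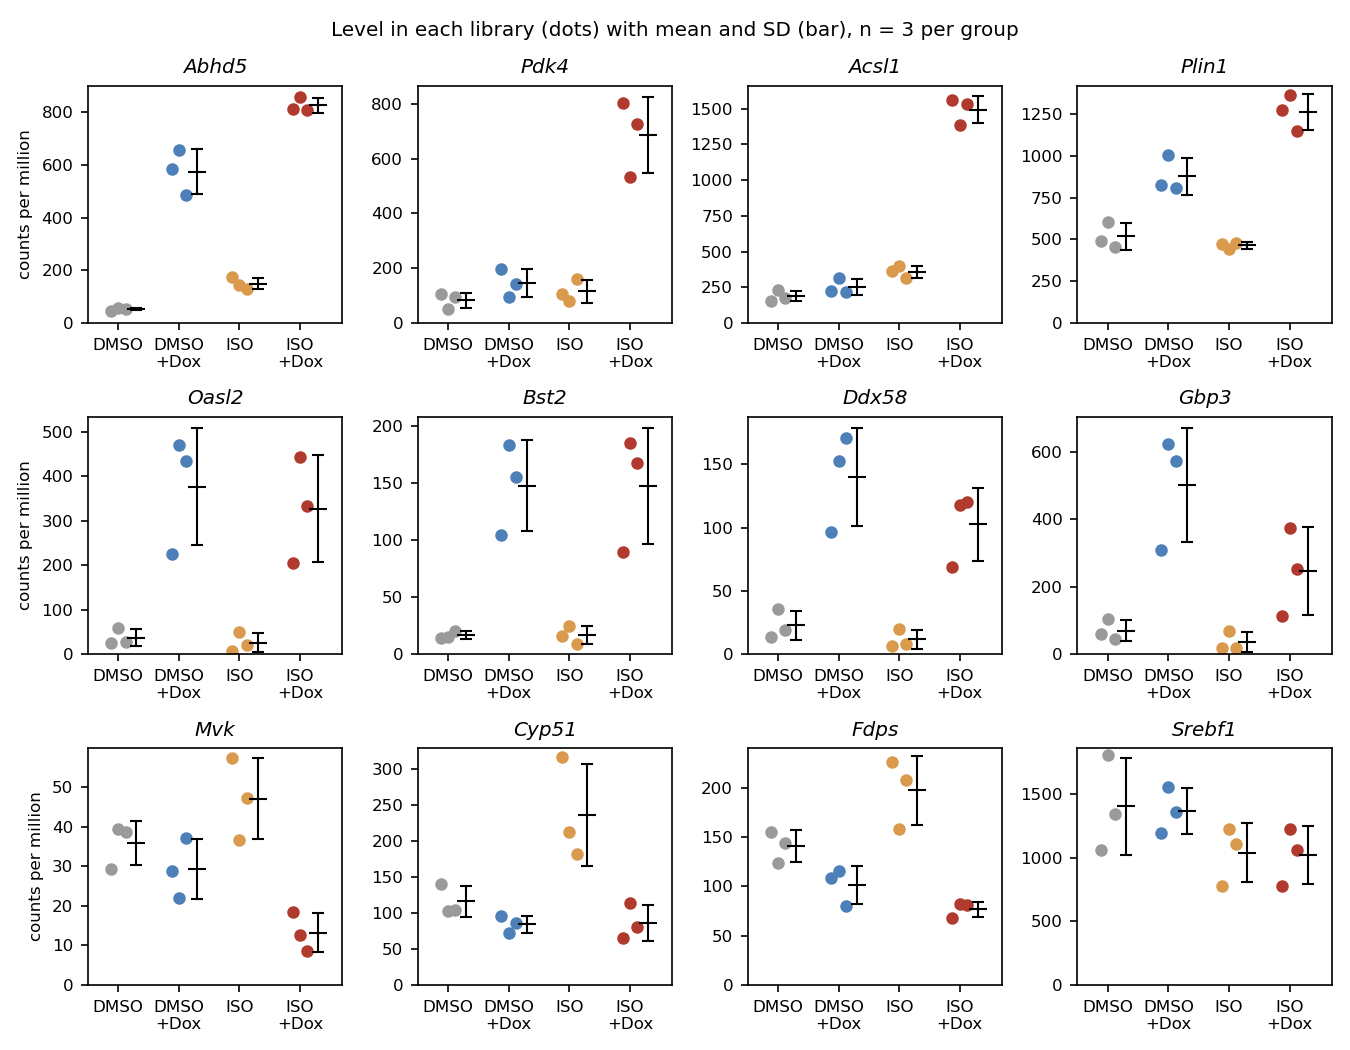
CPM of 12 genes in the DMSO and ISO libraries without and with Dox, 1 dot per library, with the mean and SD of the 3 libraries beside them and vertical axes from 0. Abhd5 and the interferon genes Oasl2, Bst2, Ddx58 and Gbp3 are higher with Dox in both media, Pdk4 and Acsl1 stand out with ISO and Dox, and Mvk, Cyp51 and Fdps have their highest mean with ISO without Dox.

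Genes that respond early to cAMP were counted next. Of 19 tested 1 was called, Nfil3, which was lower (-1.01), a share of 5.26% against 1.55% over all genes. None was called higher by edgeR, DESeq2 or limma-voom, against 3.13% over all genes, and 2 were higher at an unadjusted p under 0.05 by edgeR. Crem, Nr4a1, Nr4a2 and Vdr, transcribed rapidly when cAMP rises, had log2 fold changes of -0.19, 0.19, -0.55 and 0.16 with adjusted p of 0.482, 0.628, 0.383 and 0.555. Gem and Dusp5 gave -1.12 and 0.54, and Maff (0.60) and Dusp4 (-0.61) passed the adjusted p under the fold limit. The list averaged 5.50, 5.28 and 5.24 in ISO and 5.38, 5.20 and 5.11 in ISO with Dox as log2(CPM + 1), against 3.89, 3.94 and 4.08 in DMSO, and its libraries overlapped between the Dox states. Within each of the 3 numbered pairs the library with Dox had the slightly lower average. A p that misses the threshold does not show that the states were equal. In the cAMP machinery 3 of 27 were called, all higher: Prkar2b, at 157, 212 and 203 CPM without Dox and 774, 623 and 693 CPM with Dox (log2 fold change 1.87, SE 0.15, edgeR adjusted p = 3.12e-10), the adenylate cyclase gene Adcy5 (1.27) and the receptor kinase gene Adrbk2 (2.17). Prkar2a gave -0.12, Adcy3 0.76 and Crtc3 -0.92. Of 17 phosphodiesterases 3 were called higher, among them Pde3b, which insulin activates to lower cAMP, at 258, 355 and 281 CPM without Dox and 712, 608 and 569.8 CPM with Dox (log2 fold change 1.08, SE 0.17, edgeR adjusted p = 3.65e-05). The others were Pde11a (1.47) and Pde1b (1.03). Pde4b, Pde7a and Pde10a were lower under the fold limit (-0.88, -0.45 and -0.41). Of 11 feedback genes of the MAP kinase path 1 was called, Spry4 (1.502), with Dusp10 at 0.84, Dusp16 at 0.61 and Spry2 at 0.50.

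Shares of stress and clock genes called varied by list, against 3.13% higher and 1.55% lower over all genes tested. Of 18 tested unfolded protein response genes 4 (22.2%) were called higher, Dnajb9 (1.999, adjusted p = 1.95e-04), Thbs1 (1.80, adjusted p = 2.42e-04), Asns (1.14, adjusted p = 0.00505) and Ero1l (1.11, adjusted p = 0.0131), and the main chaperone Hspa5 gave -0.06. Derl1, of the same list, gave 0.94. Of 27 integrated stress genes Asns and Trib3 (7.41%) were called higher (1.14 and 1.12) and Slc1a4 lower (-1.03; 2 were lower with the replicate block), while Slc3a2 and Nars were higher under the fold limit (0.69 and 0.75). None of 18 mitochondrial stress genes was called by edgeR, DESeq2 or limma-voom, 2 had an unadjusted p under 0.05 by edgeR, and Lonp1 alone passed the adjusted p (0.56). With the replicate block Afg3l2 passed it as well (0.39, edgeR adjusted p = 0.0212). Hspd1, Hspe1, Dnaja3, Afg3l2 and Polrmt gave 0.16, 0.33, 0.33, 0.39 and -0.42. Of 17 antioxidant genes Hmox1 and Gstm5 (11.8%) were called higher (1.003 and 1.19). With the replicate block Hmox1 was just under the fold limit (0.99, edgeR adjusted p = 4.46e-05), which leaves 1 called. Cat gave 0.63, Gsr -0.67, Srxn1 -0.64 and Nfe2l2 0.04. Of 18 core clock genes Nfil3 (5.56%) was the 1 called, which was lower. Arntl was at 77.8, 54.5 and 60.8 CPM without Dox and 85.9, 102 and 86.6 CPM with Dox (log2 fold change 0.52, SE 0.16, edgeR adjusted p = 0.0297), and Nr1d2 gave 0.55 (adjusted p = 0.0111), both under the fold limit. Per1, Per2, Cry1, Rorb and Npas2 gave 0.15, -0.19, 0.14, 0.87 and 0.51, none past the adjusted p.

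Genes of glucose use and insulin action are read against 3.13% called higher and 1.55% lower over all genes tested. Of 24 glucose and glycogen genes 4 (16.7%) were called higher and 1 (4.17%) lower, and 13 passed the adjusted p in the higher direction. Pfkfb3, which makes the activator of glycolysis fructose 2,6-bisphosphate, was at 555, 660.3 and 584 CPM without Dox and 2188, 1782 and 2113 CPM with Dox (log2 fold change 1.76, SE 0.17, edgeR adjusted p = 1.17e-08), and the others were Pfkl (1.03, adjusted p = 4.50e-06), Pygl (1.28, adjusted p = 6.22e-04) and Ppp1r3b (1.30, adjusted p = 0.0264), with Ppp1r3c lower (-1.98, adjusted p = 0.0114). Gys1, Slc2a1 and Hk2 were under the fold limit (0.91, 0.81 and 0.70), and the insulin-responsive transporter gene Slc2a4 was at 63.8, 64.4 and 78.8 CPM without Dox and 69.2, 59.9 and 83.7 CPM with Dox (log2 fold change 0.02, SE 0.17, edgeR adjusted p = 0.959). Irs1 was at 169, 109 and 133 CPM without Dox and 329, 354 and 402 CPM with Dox (log2 fold change 1.41, SE 0.19, edgeR adjusted p = 3.32e-06) and Irs2 gave 1.20, the 2 called of 18 insulin pathway genes (11.1%, list median 0.11). Akt2, Tsc1, Pik3r1 and Foxo1 gave 0.72, 0.61, -0.54 and 0.25. Of 12 genes around pyruvate dehydrogenase 2 were called, Pdk4 and the pyruvate carrier gene Mpc1 (1.01), with Pdk1 at 0.93, Dlat at 0.80, Pdk2 at 0.65 and Mpc2 at 0.50. Of 13 secreted factors Nrg4 and Angptl4 were called higher and Fgf2 lower. Vegfa gave 0.43, and Epo gave 1.13 with edgeR adjusted p = 0.0587 and was called with the replicate block (1.16, adjusted p = 0.0268). limma-voom called 3 of the secreted factors higher, against 2 by edgeR.

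Cell type markers were set beside these results. Of 12 adipocyte markers 4 (33.3%, against 3.13% over all genes) were called higher, Cidec, Plin1, Fabp4 and Adig (1.66, 1.44, 2.19 and 1.79), and none lower, and Adipoq gave 0.88. Their summed level was 4323 to 4490.0 CPM in ISO and 6793 to 7140.0 CPM in ISO with Dox, against 3285 to 3960.0 and 3956 to 4543 CPM in DMSO without and with Dox. None of 13 tested preadipocyte and fibroblast markers was called by edgeR, DESeq2 or limma-voom, with 5 at an unadjusted p under 0.05 by edgeR, of which Col6a3 (0.46) and S100a4 (-0.87) passed the adjusted p. With the replicate block Pdgfrb (0.43), Vim (-0.38) and Fn1 (-0.37) passed it as well, under the fold limit. The sum over the 18 fibroblast genes counted was 1986 to 2408 and 2213 to 2450.0 CPM, ranges that overlap. Col1a1, Pdgfra, Pdgfrb, Vim and Fn1 gave 0.13, 0.30, 0.43, -0.38 and -0.39. The 14 macrophage markers summed to 23.3 to 43.6 and 27.9 to 33.9 CPM, of which 2 were high enough to test, with Tyrobp, C1qa and C1qb at 0 in all ISO libraries without Dox. Cd68 and Fcer1g gave 0.41 and -0.08. Endothelial and muscle markers summed to 23.1 to 39.4 and 21.7 to 33.1 CPM with Dox (28.1 to 38.7 and 20.5 to 27.8 without), and Flt1, Tek and Des gave 0.44, -0.17 and 0.15. None of 12 proliferation genes was called by edgeR, DESeq2 or limma-voom and Rrm2 alone had an unadjusted p under 0.05 by edgeR and passed the adjusted p (-0.61), with Mki67, Top2a, Mcm2, Mcm5 and Ccna2 at 0.34, 0.01, 0.16, -0.27 and -0.23. Whether a different share of mature fat cells took part in the lipid results was not tested, and in bulk RNA more cells of a type and more RNA per cell cannot be told apart.

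The study's own gene clusters were counted in the same way. Of 4 clusters defined in a separate experiment with lipase inhibitors, inhibitor_C1 had 28 of 87 tested members called higher (median 0.73), inhibitor_C3 had 27 of 140 higher and 2 lower (median 0.50), inhibitor_C4 had 15 of 143 higher and 3 lower (median 0.20), and inhibitor_C2 had 3 of 72 higher and 6 lower (median -0.05). The background is 3.13% higher and 1.55% lower. The 4 clusters the study formed on the present samples are not independent evidence of direction. They had 78 of 92 (dox_C1), 30 of 294 (dox_C2), 94 of 126 (dox_C3) and 0 of 284 (dox_C4) members called higher by edgeR, and dox_C4 had 12 called lower. For dox_C4 DESeq2 and limma-voom also called 0 higher, and 6 were positive at an unadjusted p under 0.05 by edgeR. In DMSO the first of them had 78 members called higher and the third 3.

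Some values are less certain than their errors show. Of the 477 called genes 169 (35.4%) overlap another annotated gene on mm9, and no source used here says that the counting kept strand apart. Among the called genes named here these are 4931406C07Rik, Acaa1b, Acadl, Adar, Adcy5, Agpat2, Agpat9, Aifm2, Cidea, Crat, Dgkz, Dhx58, Eif2ak2, Fdps, Fgf2, Gstm5, Hdac7, Hilpda, Irs1, Irs2, Mgll, Mpc1, Ncoa1, Nrg4, Parp9, Ppargc1b, Runx1, Sp100, Tap1, Tmem140 and Trim12a. Oas1a and Oas1b, Trim12a and Trim12c, the Gbp and Slfn genes, the H2 genes and Acaa1b with its neighbour Acaa1a are close copies whose reads may be shared. Of 113 called genes that the naming rule takes, 26 lost the call under at least 1 alternative: Acly, Adcy5, Agpat2, Asns, Bcl2l11, Dgkz, Ero1l, Gstm5, Hmox1, Il1r1, Irf9, Mpc1, Ncoa1, Nfil3, Pde11a, Pde1b, Pde3b, Pfkl, Ppara, Ppp1r3b, Ppp1r3c, Slc1a4, Spry4, Stat2, Trib3 and Uba7.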

How the data were processed

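RNA was measured in 18 libraries of 1 mouse brown adipocyte line, 3 independent experiments in each of 6 groups. Per the study's methods, the authors aligned TruSeq reads to mm9 with STAR 2.4.2a, made HOMER tags with 1 read kept per position and length, and counted reads per gene, and the deposited values are raw counts with no normalization. The deposited file also holds other gene columns, namely transcript and counted lengths, as the authors gave them. No source used here says that counting used strand.

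Groups were taken from the labels. Genes were filtered by expression (filterByExpr, 10178 of 17672 genes kept), scaled by TMM and fitted with 1 mean per group over all 18 libraries in edgeR 4.0.16 (R 4.3.3, quasi-likelihood test, two-sided). Benjamini-Hochberg adjustment ran over all genes tested, and calls took an adjusted p up to 0.05 and at least a 2-fold difference. Values per library are CPM on TMM-scaled totals. DESeq2 1.42.0, limma 3.58.1 (voom), other scalings and filters, a replicate block and each library left out were alternatives. A fold against a group with 3 or fewer counts in every library is a lower bound at that floor.

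The members and gene lists were chosen with earlier results of these data known. Named genes were Abhd5, the 10 genes called in each direction with the smallest p and no overlap of libraries, the 5 with the smallest p in each direction of the difference, and from each list fixed anchors, up to 5 members with the smallest p and all called members where 5 or fewer were called. Some genes that this rule takes are not reported here. The cholesterol list was completed after its values had been seen. Same-numbered ISO libraries deviated together (r of 0.146, 0.252 and 0.128 between their deviations from the group means), so the numbers, which come from the labels, pair them. Promoters came from RefSeq tables of GRCm38.p6 and no coordinate was converted between builds. Replicates differed by more than sampling noise (chi-square per degree of freedom 2.28 to 23.6), so each counted once.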

Additional observations from a re-analysis of the deposited data

Results flagged for a closer look

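The Dox effect differed between ISO and DMSO for 133 genes by the test of the difference itself (edgeR, adjusted p of 0.05 or less and at least 2-fold). The named genes below are listed for an adjusted p of 0.05 or less alone, so some of their differences are under 2-fold. Among the genes named above, 32 had a more positive Dox effect with ISO at an adjusted p of 0.05 or less. The differences, as log2 fold change with ISO less that with DMSO, were 4931406C07Rik 2.94, Tmem120a 1.57, Dhrs3 2.04, Tmem140 1.55, Prkar2b 1.73, Aifm2 1.1, Acsl1 1.63, Dhrs9 1.61, Acaa1b 2.4, Pfkfb3 1.41, Agpat9 1.73, Picalm 1.63, Pdk4 1.76, Pex11a 1.17, Cidec 1.45, Nrg4 1.61, Mgll 1.20, Aqp7 1.29, Adig 1.57, Crat 0.74, Fabp4 1.92, Dgat1 1.40, Irs1 1.54, Acadl 0.96, Mpc1 0.83, Pde3b 0.97, Dnajb9 2.06, Ncoa1 1.19, Dlat 0.81, Pdk1 0.93, Adipoq 0.85 and Derl1 1.03.

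In 15 named genes the effect was more negative with ISO. These were Abhd5 -0.98, Runx1 -1.29, Cyp2ab1 -1.68, Gfpt2 -1.79, Fdps -0.88, Acly -0.74, Fgf2 -2.04, Il1r1 -0.95, Camkk2 -1.69, Hsd17b7 -1.26, Hdac7 -1.69, Mvk -1.52, Acsl5 -1.40, Dgkz -1.64 and Crtc3 -1.56. Abhd5 is the 1 gene among them that was called higher in both media, and the others that were lower with ISO included Mvk, Fdps and Hsd17b7 of sterol synthesis. In groups of 3 libraries no test for a single outlying library was made.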

How the results depend on the processing

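The replicate block gave 526 calls (345 higher, 181 lower) for the Dox effect with ISO, where the numbers pair the libraries, and changed no named call there other than those of Hmox1, Adrb3 and Epo. In DMSO the same-numbered libraries also deviated together (r of 0.145, 0.235 and 0.0875, against -0.172 to 0.0546 between different numbers). The block gave 235 calls (143 positive, 92 negative) for the difference between media against 133. With at least 10 counts in all 18 libraries, which leaves 7457 genes, 237 genes were called with ISO and 36 with DMSO. This setting also drops genes with few counts in 1 group only, and why the counts fell was not tested. Without a fold limit the counts were 1297 with ISO and 222 for the difference, which was 205 with no filter on low counts and 69 at an adjusted p of 0.01. Leaving out 1 library gave 394 to 479 calls with ISO, 74 to 105 with DMSO and 87 to 196 for the difference. The 87 came without ISO replicate 1 with Dox and the 196 without ISO replicate 2 with Dox. Omitting the library of SR-3420 with Dox that stood apart, an alternative chosen after seeing the data, gave 475, 92 and 135. In the other settings the totals stayed within 1.5 times, while by direction DESeq2 called 86 positive and 24 negative differences against 91 and 42, and 0 genes lower with DMSO against 2.

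Of 113 genes called with ISO that the naming rule takes, 87 kept the call in every setting that could test them and none reversed. With at least 10 counts in all libraries 73 of the 113 could be tested. Without ISO replicate 1 the calls of Acly, Pfkl, Nfil3, Pde3b, Agpat2, Adcy5, Slc1a4, Ero1l, Irf9 and Pde1b were lost. Without ISO replicate 2 those of Mpc1, Agpat2, Ncoa1, Ppp1r3b, Spry4 and Pde1b were lost, and without ISO replicate 3 those of Pde11a, Slc1a4, Stat2, Hmox1, Trib3, Ppp1r3c, Ero1l, Gstm5, Ppp1r3b, Irf9 and Pde1b. Without replicate 1 with Dox Pfkl, Mpc1, Pde3b, Ncoa1, Dgkz, Asns, Trib3 and Ppp1r3c lost it, without replicate 2 with Dox Il1r1, Nfil3, Bcl2l11, Slc1a4, Stat2, Hmox1, Ppp1r3c, Ero1l, Gstm5, Irf9 and Pde1b, and without replicate 3 with Dox Nfil3, Ncoa1, Dgkz, Ppp1r3b, Spry4 and Pde1b. With limma-voom Ncoa1, Ppara, Uba7, Hmox1, Irf9 and Pde1b were lost. Upper-quartile factors lost Pfkl, Mpc1, Agpat2, Ncoa1, Hmox1 and Pde1b, and library totals only lost the same genes except Agpat2. DESeq2 lost Ero1l and Pde1b, no filter on low counts Nfil3 and Pde1b, the libraries of the comparison alone Irf9 and Pde1b, and the replicate block Hmox1. The cause was not tested.

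Signs reversed only among genes with no call. With upper-quartile factors and with library totals only, log2 fold changes were -0.028 and -0.0131 for Nfe2l2, -0.0444 and -0.0303 for Slc2a4 and -0.0517 and -0.0259 for Top2a. Over the fits that left out 1 library each, the log2 fold change ran from -0.0065 to 0.442 for Gsdmd, -0.136 to 1.13 for Cd68, -0.0232 to 1.00 for Flt1, -0.0897 to 0.469 for Foxo1, -0.306 to 0.0031 for Tek, -0.0795 to 0.271 for Cry1, -0.574 to 0.179 for Per2, -0.0681 to 0.326 for Des, -0.0476 to 0.337 for Per1, -0.149 to 0.0403 for Hspa5, -0.0315 to 0.112 for Nfe2l2, -0.219 to 0.152 for Fcer1g, -0.195 to 0.136 for Srebf1, -0.0939 to 0.154 for Slc2a4 and from -0.107 to 0.228 for Top2a. The median gene of the ISO libraries had 10 to 14 counts, and 7494 genes were too low to test.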
